A study of Homo sapiens with 12 samples.

Results

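Ribosome footprints on 10 genes that encode subunits of vesicle coats are described here: the clathrin heavy chain CLTC and light chains CLTA and CLTB, the COPI subunits COPA, COPB1, COPB2, COPG1 and ARCN1, and the COPII subunits SEC31A and SEC24C. They were taken by Ensembl identifier from the 19580 genes of the deposited table, and all 10 were among the 11510 genes that passed the filter on low values (at least 1 RPKM in at least 3 libraries). RPKM is footprint reads scaled by transcript length and by the total of the library. The genes belong together by function, but they were chosen by their RPKM values too, since earlier results of these data, taken to be those in 4SU+UVA against untreated cells, were known. Their values in 4SU+UVA against untreated cells are therefore given as a description, with no p-value. The comparisons of 4SU+UVA with 4SU or UVA cells and the interaction contain the same 4SU+UVA libraries and are treated alike. Counts of genes past a threshold stand in these comparisons only beside the share of all tested genes, and nothing is read from them.

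The cells were HAP1, a near-haploid human line of wild-type genotype derived from KBM-7 leukaemia cells. One group received 4-thiouridine (4SU) at 5 uM for 18 h and then UVA at 6 kJ per square metre, with harvest 30 min later. Another group received 4SU alone, another UVA alone, and the last was untreated, with 3 replicates each, 12 libraries in all; the labels do not say whether replicates were separate cultures. Cells build 4SU into new RNA in place of uridine, and UVA is known to couple it to nearby protein. All libraries hold ribosome footprints, and no RNA-seq was analysed here, so fewer mRNA copies and fewer ribosomes on each copy cannot be told apart.

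Coat proteins bend membrane into vesicles and collect their cargo. Clathrin assembles as a triskelion of heavy chains, each carrying a light chain, and covers vesicles that leave the plasma membrane and the trans-Golgi network. COPI, or coatomer, covers vesicles that move from the Golgi back to the endoplasmic reticulum and within the Golgi, and COPII covers those that leave the endoplasmic reticulum for the Golgi. Subunits of one coat assemble together, so their relative footprint densities are set side by side below. RPKM divides by whole transcript length, so a level compared between genes does not give the proportions in which the proteins are made.

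Library totals lay between 1899854 reads (4SU+UVA replicate 2) and 5832366 reads (untreated replicate 3). A coat gene had between 153 reads (CLTB in 4SU+UVA replicate 2) and 10163 reads (CLTC in untreated replicate 3) per library. The reads were amplified by PCR without described molecular identifiers, so they are not independent molecules. RPKM is relative to each library's total, and the median tested gene moved by 0.23 on the log2 scale in 4SU+UVA against untreated cells, by 0.09 in 4SU alone and by 0.05 in UVA alone. For the clathrin genes in 4SU+UVA against untreated cells, changes are therefore also given relative to the median gene. Fitted changes of the other genes and comparisons are given without that shift, unless median centring is named.

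On the RPKM scale, the clathrin chains moved in opposite directions when 4SU and UVA were combined. Footprints on the heavy chain CLTC fell to 54.7, 53.4 and 51.9 RPKM in the 4SU+UVA libraries, against 326, 313 and 329 RPKM in the untreated ones. The light chain CLTA stood at 354, 323 and 308 RPKM with 4SU+UVA, against 261, 276 and 269 RPKM in untreated cells. CLTB, the other light chain, stood at 84.5, 74.2 and 74.5 RPKM, against 58.4, 51.9 and 49.5 RPKM in untreated cells. In each of the 3 genes the libraries of both groups did not overlap, as held for 63.7% of tested genes in either direction. The share lower without overlap, the direction of CLTC but not of the light chains, was 20.2%. In RPKM, CLTC went down and both light chains went up, though CLTA by little more than the median gene.

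CLTC (ENSG00000141367.12) lies at chr17:59619895-59696956 in GRCh38.p14, and its transcript in the table is 5292 nt long, longer than those of 84.9% of tested genes. Its fitted log2 change in 4SU+UVA against untreated cells was -2.59 (SE 0.18), a 6-fold drop, or -2.82 relative to the median gene. That was the second lowest change of the 11510 genes tested. It was the lowest of the 1743 genes with a transcript at least as long, whose median change was 0.07. It was also the lowest of the 422 genes with a mean density over all 12 libraries at least as high (median change 0.19). That mean includes the 4SU+UVA libraries. CLTC was chosen with this comparison known, so these ranks are a description only. CLTC took 0.0282 ± 0.000739% of all reads with 4SU+UVA and 0.171 ± 0.00442% in untreated cells (SD, n = 3 each). By mean density it ranked 1774 among the tested genes with 4SU+UVA and 271 in untreated cells. The reads behind these values numbered 1601, 537 and 837 in the 4SU+UVA libraries and 6531, 8756 and 10163 in the untreated ones. Thus one of the most densely covered mRNAs of untreated cells dropped far down the order.

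CLTA (ENSG00000122705.17, chr9:36190874-36212059, transcript 1152 nt) and CLTB (ENSG00000175416.16, chr5:176392455-176416569, transcript 1085 nt) are shorter than most tested transcripts, whose median length was 2616.5 nt. Their fitted log2 changes were 0.29 (SE 0.07) for CLTA and 0.54 (SE 0.10) for CLTB. Relative to the median gene these were 0.05 and 0.31, so the difference of CLTA from untreated cells was close to that of the median gene. When each library was centred on its median, the log2 changes were 0.12 for CLTA and 0.37 for CLTB.

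**Figure D1:**
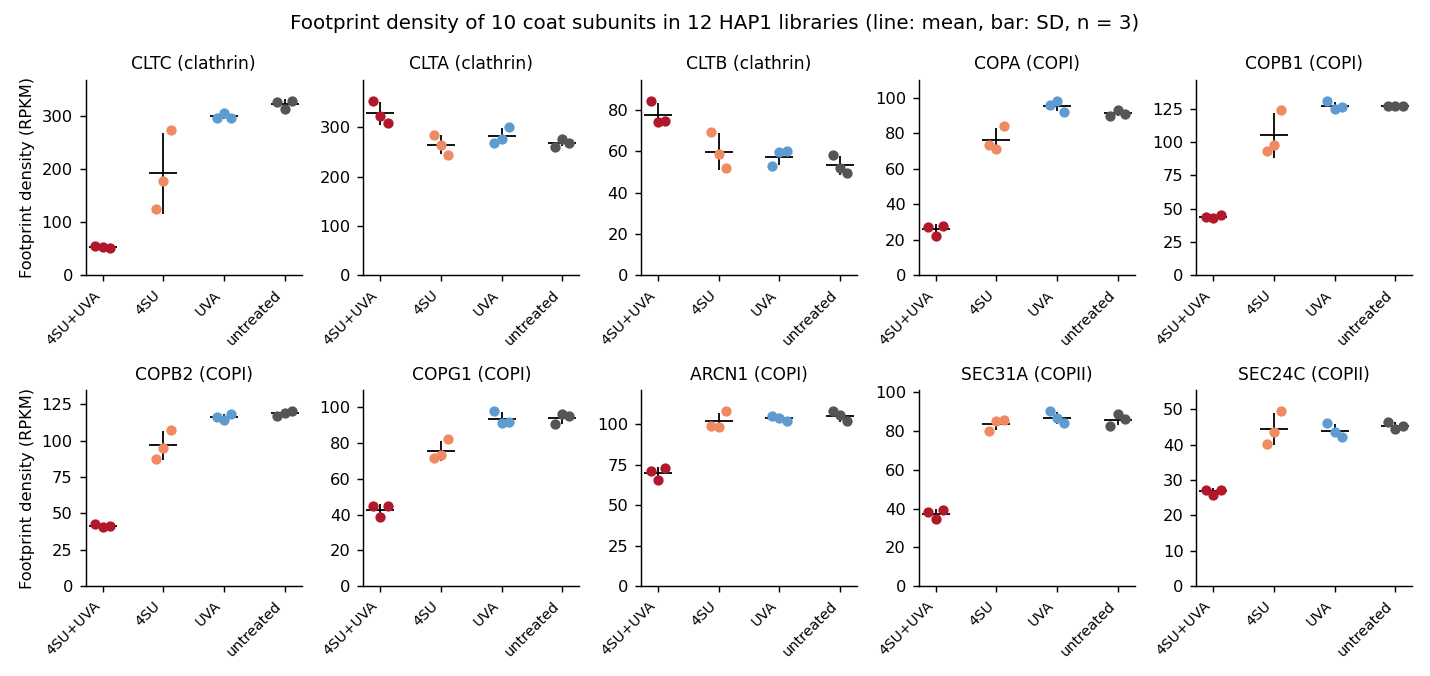
Footprint density (RPKM, each axis starting at 0) of the 10 coat genes in the 4 groups; points are libraries, lines are means and bars are SD (n = 3). CLTC stands at 51.9 to 54.7 RPKM in the 4SU+UVA libraries, below every other library, whereas all 4SU+UVA values of CLTA and CLTB lie above those of the other groups.

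The ratio of heavy to light chains does not depend on the library total. CLTC density over the sum of both light chains was 0.125, 0.134 and 0.136 in the 4SU+UVA libraries, 0.353, 0.55 and 0.923 with 4SU alone, 0.923, 0.908 and 0.824 with UVA alone and 1.02, 0.956 and 1.03 in untreated cells. Heavy and light chains were thus covered about equally per transcript length in untreated cells, and the heavy chain far less with 4SU+UVA. On the log2 scale, CLTC against the mean of both light chains averaged -1.57 ± 0.07 with 4SU+UVA, 0.54 ± 0.72 with 4SU, 1.23 ± 0.08 with UVA and 1.43 ± 0.07 in untreated cells (SD, n = 3 each). The 4SU libraries spread widely in this ratio, at -0.17, 0.51 and 1.28, and the highest of them lay above UVA replicates 2 and 3, at 1.25 and 1.14, and below all untreated libraries. The ratio between the light chains moved less: CLTA over CLTB averaged 2.07 ± 0.04 on the log2 scale with 4SU+UVA and 2.33 ± 0.15 in untreated cells (SD, n = 3 each).

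**Figure D2:**
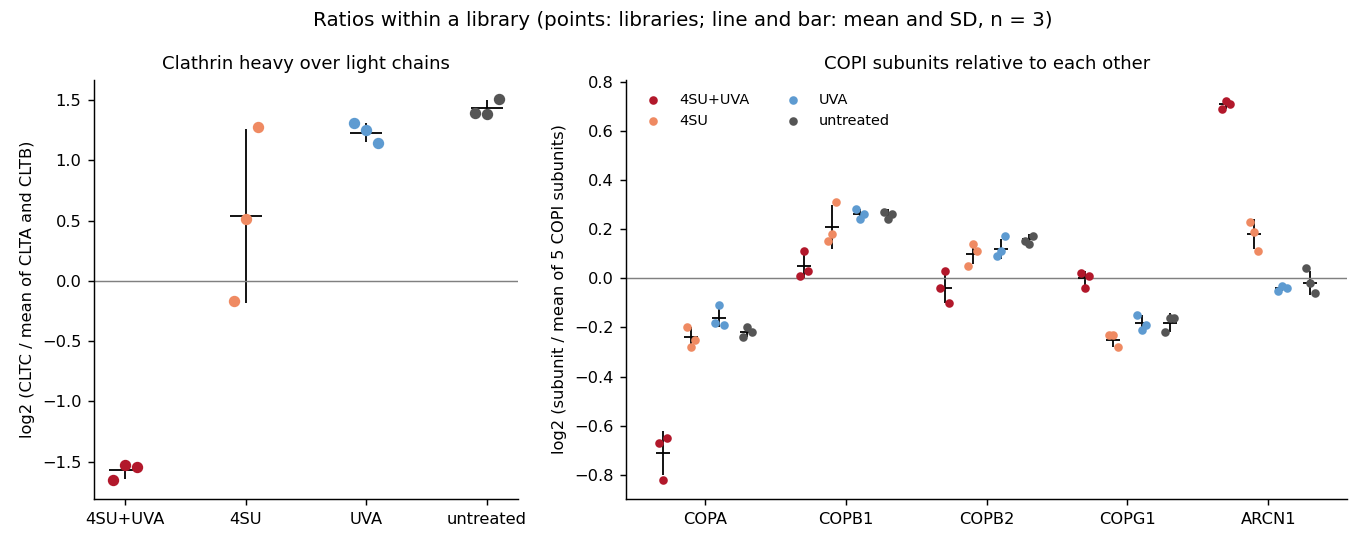
Log2 ratios within each library (points), with mean and SD (n = 3): left, CLTC over the mean of CLTA and CLTB; right, each COPI subunit over the mean of the 5. The heavy-to-light ratio lies between -1.65 and -1.53 with 4SU+UVA and between 1.38 and 1.51 in untreated cells; COPA moves down and ARCN1 up within COPI with 4SU+UVA.

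All 5 COPI subunits stood lower with 4SU+UVA, by sizes that differed between them. COPA, the alpha subunit that forms part of the outer layer of coatomer, stood at 27.4, 22.3 and 28 RPKM with 4SU+UVA, against 89.5, 93.2 and 90.8 RPKM in untreated cells. ARCN1, the delta subunit of the cargo-binding inner layer, stood at 71.2, 65.8 and 72.8 RPKM, against 108, 106 and 102 RPKM. Neither gene's libraries overlapped between the groups, where 20.2% of tested genes were lower without overlap. COPA fell 3.49-fold (log2 -1.80, SE 0.09), but ARCN1 fell 1.5-fold (log2 -0.59, SE 0.06).

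COPA (ENSG00000122218.16) lies at chr1:160288594-160343250 and ARCN1 (ENSG00000095139.15) at chr11:118572409-118603033. The other COPI subunits lay between COPA and ARCN1 in the size of their change. They were the beta subunit COPB1 (inner layer), the beta prime subunit COPB2 (outer layer) and the gamma subunit COPG1 (inner layer). COPB1 stood at 44.2, 42.9 and 45.1 RPKM with 4SU+UVA, against 127 RPKM in each of the 3 untreated libraries (log2 -1.52, SE 0.09). COPB2 stood at 42.7, 40.5 and 41.3 RPKM, against 117, 119 and 120 RPKM (log2 -1.50, SE 0.07). COPG1 had 44.6, 38.6 and 44.6 RPKM, against 90.5, 96.3 and 95 RPKM (log2 -1.13, SE 0.08). COPB1 and COPB2 fell by amounts that differed by less than their SE. COPB1 (ENSG00000129083.13) lies at chr11:14457512-14499811, COPB2 (ENSG00000184432.11) at chr3:139357406-139389680 and COPG1 (ENSG00000181789.14) at chr3:129249606-129277773, so the last pair share a chromosome but lie far apart.

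In RPKM, the 5 subunits were within a narrow range of each other in untreated cells and spread apart with 4SU+UVA. RPKM divides by whole transcript length, untranslated regions included, so the range within a group may differ per coding length. Differences between groups for the same subunit do not depend on that length. The densest COPI subunit exceeded the least dense by 2.71 ± 0.20 times with 4SU+UVA, 1.43 ± 0.0738 times with 4SU, 1.37 ± 0.000898 times with UVA and 1.39 ± 0.0303 times in untreated cells (SD, n = 3 each). Relative to the mean of the 5 within a library, COPA stood at -0.71 ± 0.09 with 4SU+UVA and -0.22 ± 0.02 in untreated cells, and ARCN1 at 0.71 ± 0.02 and -0.02 ± 0.05 (log2, SD, n = 3 each). COPG1 moved up within the complex, at 0.02, -0.04 and 0.01 with 4SU+UVA and -0.22, -0.16 and -0.16 in untreated cells. With 4SU alone ARCN1 lay at 0.23, 0.19 and 0.11, above the untreated values of 0.04, -0.02 and -0.06.

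SEC31A, which forms the outer cage of COPII, stood at 38, 34.7 and 39.2 RPKM with 4SU+UVA, against 82.7, 88.7 and 86 RPKM in untreated cells (log2 -1.19, SE 0.07). SEC24C, a cargo-binding subunit of the inner COPII layer, stood at 27.3, 25.7 and 27.3 RPKM, against 46.5, 44.4 and 45.2 RPKM (log2 -0.75, SE 0.08). Both were lower with no overlap between libraries, as were 20.2% of tested genes. The fitted change of the outer subunit was the larger. SEC31A (ENSG00000138674.17) lies at chr4:82818509-82900569 and SEC24C (ENSG00000176986.16) at chr10:73744372-73772161.

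Across the 10 genes, 8 were lower and 2 higher in 4SU+UVA against untreated cells at an adjusted p under 0.05, and the libraries of all 10 did not overlap. Of all tested genes 18.4% were lower and 40.6% higher by the same rule, 63.7% did not overlap in either direction and 20.2% did not overlap and were lower. The median change of the 10 was -1.16 on the log2 scale, beside 0.23 for all tested genes. Centring each library on its median turned the whole table's split of 4674 higher and 2122 lower genes to 3107 higher and 2888 lower.

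By listed transcript length the light chains lay apart from the other 8 genes, and the changes of those 8 did not follow that length. COPA (4664 nt) and SEC24C (4445 nt) have transcripts of similar length, with changes of -1.80 and -0.75. ARCN1 (4038 nt) had a smaller change than COPG1 (3078 nt), COPB2 (3275 nt) and COPB1 (3481 nt). SEC31A, at 3909 nt, lay between these in its change. The lengths are those of the transcript listed for each gene and include untranslated regions. Coding lengths were not used, so the order of the 8 by coding length may differ and was not tested.

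**Figure D3:**
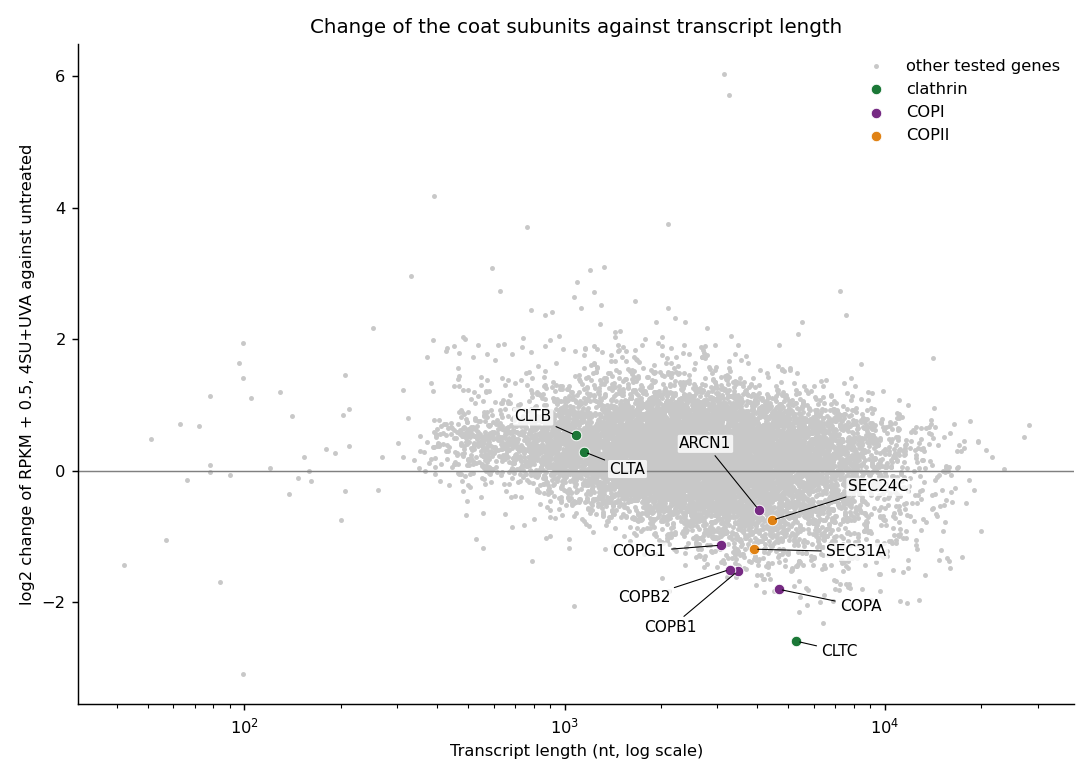
Log2 change in 4SU+UVA against untreated cells of the 11510 tested genes (grey) by transcript length (nt, log axis), with the clathrin, COPI and COPII genes in colour. CLTA and CLTB lie above 0 at 1152 and 1085 nt; the other 8, from 3078 to 5292 nt, lie between -0.59 and -2.59.

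A short run of letters near annotated starts was found in the windows of all COPI and COPII genes and in none of the clathrin windows. The letters ACGTGG, or CCACGT on the other strand, were searched in the RefSeq windows of 250 bases before to 50 bases after each annotated start (GRCh38.p14), a motif chosen after these windows had been read. These letters occur in the unfolded protein response element, which the stress factor XBP1 is known to bind. They are only a part of that element, and presence of the whole element was not tested. Read on the motif's strand, tg stands directly before ACGTGG only in the stretches of COPA, COPB1 and COPB2 among those below. The motif occurred in a window of 7 of 7 COPI and COPII genes and of 0 of 3 clathrin genes. Of all 35116 windows 9.72% held it, and of 27305 gene symbols 11.6%. Because the motif was picked from these same windows, the split was known beforehand. The shares beside it are therefore no test of enrichment. The match nearest to a start, among those with room for flanking bases in the window, is shown for each gene to let the 7 be compared, on the gene's strand, with the motif in capitals.
COPA, chr1:160343226-160343255, minus strand: agagggtcgctgACGTGGaggcgtccgaag
COPB1, chr11:14499842-14499871, minus strand: ccccacccccttCCACGTcagccaaggact
COPB2, chr3:139389633-139389662, minus strand: ctcccggaagttCCACGTcagtcagtctga
COPG1, chr3:129249586-129249615, plus strand: gagcgctgggcgACGTGGccagtcggggcc
ARCN1, chr11:118572379-118572408, plus strand: ttccggttgaagACGTGGcttggggccgcc
SEC31A, chr4:82891175-82891204, minus strand: cgttggaacggaACGTGGaggtggccctgg
SEC24C, chr10:73744288-73744317, plus strand: cccgaaatgcagACGTGGcagaagaagtgg
SEC31A has several annotated starts, with 5 matches over their windows. The stretches shown for SEC31A and COPB2 belong to starts inside the gene spans given above, not to their outermost ones. COPB1 has 2 matches, COPB2 has 3 and the other 4 genes have 1 each. A gene with more annotated starts has more windows that can hold a match. A match is a description of letters, and footprints do not measure whether a factor acts there.

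With 4SU alone, CLTC and 3 COPI subunits fell by small to moderate amounts. CLTC stood at 125, 178 and 274 RPKM with 4SU, against 326, 313 and 329 RPKM in untreated cells (log2 -0.82, SE 0.18, limma adjusted p = 0.0087). All 3 libraries were below the untreated ones, but their coefficient of variation was 39.4%, against 2.59% in untreated cells. It was 2.62% with 4SU+UVA and 1.76% with UVA. The fit shares 1 spread per gene over the 4 groups, so this SE and p-value understate the spread of CLTC within the 4SU libraries. The other genes that passed were COPG1 (log2 -0.31, limma adjusted p = 0.014), COPB2 (log2 -0.30, limma adjusted p = 0.013) and COPB1 (log2 -0.29, limma adjusted p = 0.038).

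The 4SU densities of COPB2 were 87.4, 94.8 and 107 RPKM, against 117, 119 and 120 RPKM in untreated cells. COPG1 had 71.6, 73.2 and 82 RPKM, against 90.5, 96.3 and 95 RPKM, and COPB1 93.3, 97.6 and 124 RPKM, against 127 RPKM in each untreated library. COPA did not pass at a log2 change of -0.26 (limma adjusted p = 0.057), although its 73.3, 70.9 and 83.9 RPKM lay below all untreated libraries. It passed under median centring, at -0.39, without 4SU replicate 3, at -0.34, and without 4SU+UVA replicate 2, at -0.26. ARCN1, SEC31A, SEC24C, CLTA and CLTB did not pass, with changes from -0.05 to 0.16 and overlapping libraries. ARCN1 stood at 99.2, 98.2 and 108 RPKM with 4SU, against 108, 106 and 102 RPKM in untreated cells. SEC24C stood at 40.3, 43.5 and 49.4 RPKM, against 46.5, 44.4 and 45.2 RPKM. CLTA had 284, 265 and 245 RPKM with 4SU and CLTB 69.3, 58.6 and 51.9 RPKM, so in both light chains replicate 1 was the highest of its group, where in CLTC it was the lowest.

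In all, 4 of 10 coat genes were lower and 0 higher with 4SU alone (limma, 5 at an unadjusted p under 0.05), where 3.12% of tested genes were lower and 11.3% higher. The background depends on scaling: the table's 1295 higher and 359 lower genes became 640 higher and 1080 lower under median centring, with 5 coat genes lower, and 678 higher and 497 lower under quantile normalisation, with 3. Libraries did not overlap for 5 of the 10, all lower, and for 35.3% of tested genes, or 10.1% counting those lower. The median of the 10 was -0.16 on the log2 scale, beside 0.09 for all tested genes. Replicate 1 of 4SU was the lowest of its group in 6 of the 8 genes other than the light chains, and replicate 2 in the other 2. Without 4SU replicate 1, or without 4SU replicate 2, only CLTC remained past the threshold, with log2 changes of -0.55 and -0.8, and without untreated replicate 2 or 3 the number was 2. Without 4SU replicate 3 it was 5, COPA included. The untreated libraries are those of the comparison by which the genes were chosen, so this test is not fully independent of the choice, nor is that of UVA alone.

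UVA alone moved none of the 10 past the threshold (limma, 0 lower and 0 higher, and 0 at an unadjusted p under 0.05), where 0.374% of tested genes were lower and 0.278% higher. CLTC stood at 296, 306 and 297 RPKM with UVA, against 326, 313 and 329 RPKM in untreated cells, a log2 change of -0.11 (SE 0.18, limma adjusted p = 0.94). Its libraries did not overlap, which held for this 1 of the 10 and for 16.8% of tested genes, or 3.93% counting those lower. The fit uses 1 spread per gene over the 4 groups, so the SE of CLTC includes its widely spread 4SU libraries. The other 9 had fitted changes between -0.04 (SEC24C) and 0.11 (CLTB), with overlapping libraries. COPA had 95.9, 98.2 and 92.1 RPKM with UVA, against 89.5, 93.2 and 90.8 RPKM in untreated cells, and COPB1 131, 125 and 126 RPKM, against 127 RPKM in each untreated library. CLTA stood at 268, 277 and 300 RPKM with UVA, against 261, 276 and 269 RPKM. UVA and untreated libraries were interleaved in each of these genes.

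**Figure D4:**
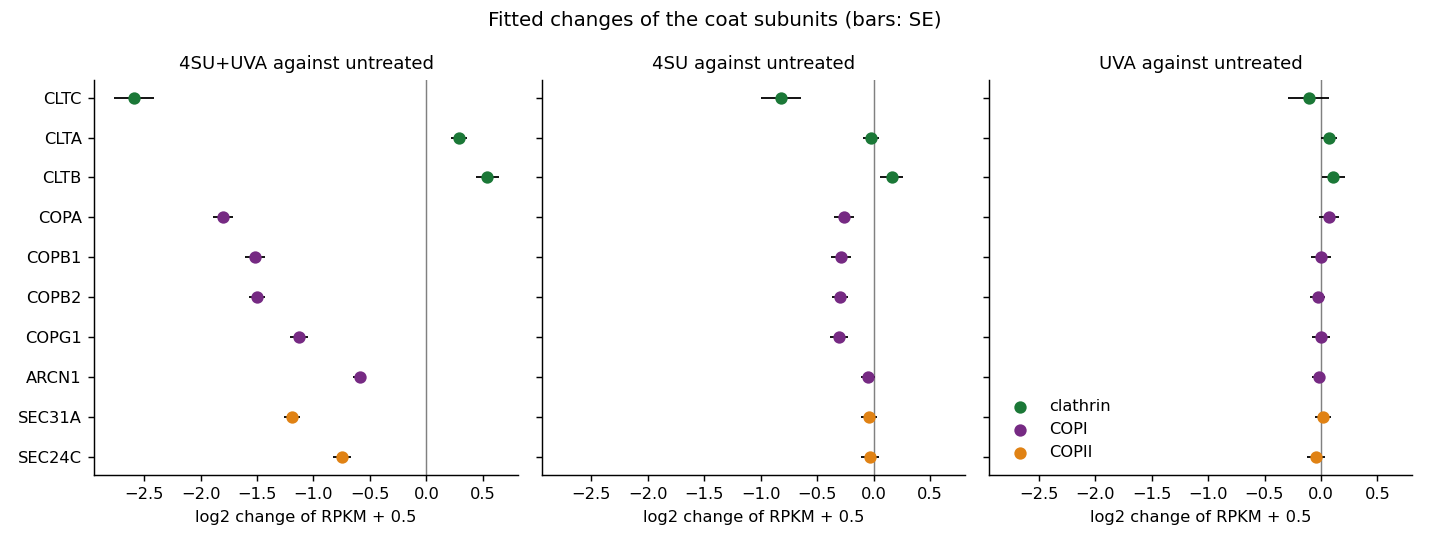
Fitted log2 change of RPKM + 0.5 (points) with SE (bars) of the 10 genes in 4SU+UVA, 4SU and UVA, each against the same untreated libraries. CLTC lies at -2.59, -0.82 and -0.11; the COPI genes range from -1.80 to -0.59 with 4SU+UVA and from -0.03 to 0.07 with UVA.

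The same 8 genes were lower, and both light chains higher, when irradiated 4SU cells were set against 4SU cells kept from UVA. In 4SU+UVA against 4SU cells, the log2 difference was -1.77 for CLTC (SE 0.18), -1.54 for COPA (SE 0.09) and -1.16 for SEC31A (SE 0.07). It was 0.31 for CLTA and 0.38 for CLTB. The other differences below 0 ranged from -0.54 (ARCN1) to -1.23 (COPB1). This comparison uses the same 4SU+UVA libraries as the one with untreated cells. In it 8 coat genes were lower and 2 higher at an adjusted p under 0.05, where 19.0% of tested genes were lower, 25.0% were higher and 51.0% did not overlap (21.4% did not overlap and were lower), as held for all 10 coat genes. SEC31A, whose densities with 4SU alone (80.1, 85.1 and 85.5 RPKM) overlapped the untreated ones, thus had a difference of similar size against either group.

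In 4SU+UVA against UVA cells, again with the same 4SU+UVA libraries, the log2 difference was -2.48 for CLTC (SE 0.18) and -1.87 for COPA (SE 0.09). By the same threshold 8 genes were lower and 2 higher, where 19.8% of tested genes were lower and 34.7% higher. All 10 had libraries that did not overlap, as had 59.4% of tested genes, or 21.5% counting those lower. CLTA stood at 0.22, at 0.13 when libraries were centred on their median, at 0.17 without 4SU+UVA replicate 1 and at 0.18 without UVA replicate 1. CLTB stood at 0.43.

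The interaction, which sets the change that UVA brought in 4SU cells against the change it brought in cells without 4SU, was below 0 for the same 8 genes. By the same threshold 8 of the 10 lay below and 0 above, where 14.1% of tested genes lay below and 10.7% above. It contains the 4SU+UVA and the untreated libraries by which the genes were chosen. It was -1.66 for CLTC (SE 0.25), -1.60 for COPA (SE 0.12) and -0.52 for ARCN1 (SE 0.09) on the log2 scale. The values of CLTC and COPA were thus close, and that of ARCN1 was the smallest of the 8 in size. It was 0.25 for CLTA and 0.27 for CLTB, with 0.28 for CLTA under median centring and 0.30 and 0.38 for the 2 light chains without 4SU replicate 1.

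The order of the 10 by density changed with these shifts. In untreated cells CLTC was highest at 323 ± 8.35 RPKM, followed by CLTA at 269 ± 7.39 RPKM (SD, n = 3 each), and their libraries did not overlap. With UVA CLTC (300 ± 5.28 RPKM) and CLTA (282 ± 16.7 RPKM) overlapped, and with 4SU CLTA (265 ± 19.4 RPKM) overlapped CLTC (192 ± 75.8 RPKM). With 4SU+UVA CLTA was highest at 329 ± 23.3 RPKM, followed by CLTB, ARCN1 and CLTC at 77.7 ± 5.89, 69.9 ± 3.64 and 53.4 ± 1.40 RPKM, none of them overlapping the next. CLTB thus stood second of the 10 with 4SU+UVA and ninth in untreated cells. At the low end, SEC24C (26.8 ± 0.929 RPKM) and COPA (25.9 ± 3.10 RPKM) overlapped with 4SU+UVA, whereas in untreated cells SEC24C stood at 45.4 ± 1.04 RPKM and COPA at 91.2 ± 1.87 RPKM.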

How the data were processed

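Per the labels' protocols, lysates were made with cycloheximide and digested with RNase I, and footprints were size-selected, ligated, reverse transcribed and amplified. The authors deposited RPKM values in 1 table of 12 libraries. STAR 2.7.10a and the hg38 build are named in the submitters' processing notes. How reads were counted, with which annotation and whether by strand is not stated in those sources. Reads shared between CLTC and its paralogue CLTCL1 may have been split or dropped.

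Groups and replicate numbers came from sample titles. Tests used limma 3.58.1 in R 4.3.3 on log2(RPKM + 0.5), with 1 model of 4 group means over 12 libraries (8 residual degrees of freedom, variance trend, two-sided, Benjamini-Hochberg adjustment over 11510 genes, threshold 0.05), after a check on simulated data. The added 0.5 draws changes of low genes toward 0. P-values measure the spread between these replicates. Library totals, transcript lengths and reads were recovered from the RPKM steps (whole within 0.001 reads, 99.932% or more of each total). The members, gene lists and comparisons were chosen with earlier results of these data known; all 10 members are named. The table pairs its identifiers with no symbols, and the RefSeq table used here gave 0 Ensembl identifiers, so lists of other coat genes, markers of the cell line and genes resembling CLTC were not analysed here. Positions come from RefSeq by symbol (10 of 10 matched). No pairing by replicate number was seen in the values: same-numbered libraries of different groups correlated in their deviations at -0.05 to 0.07 (18 pairs). This does not show whether same-numbered libraries were prepared together.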

Additional observations from a re-analysis of the deposited data

Results flagged for a closer look

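For 8 of the 10 genes the interaction term, fitted with limma, set the UVA effect apart between cells with and without 4SU. All 8 lay below 0, where 14.1% of tested genes lay below and 10.7% above at an adjusted p under 0.05. The interaction contains the 4SU+UVA and untreated libraries by which the genes were chosen, so the values are a description and no independent test. The UVA effect with 4SU minus that without it was, on the log2 scale, -1.66 for CLTC, -1.60 for COPA, -1.24 for COPB1, -1.17 for COPB2 and -0.82 for COPG1. It was -0.52 for ARCN1, -1.17 for SEC31A and -0.67 for SEC24C.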

How the results depend on the processing

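Alternatives were pseudocounts of 0.1 and 1, no filter on low values, median centring, quantile normalisation, no variance trend, the replicate block and each library left out. The comparisons that contain 4SU+UVA hold the libraries by which the genes were chosen, so their counts over these alternatives are no sign of stability. With the replicate number as a block, 8 genes were lower and 2 higher in 4SU+UVA against untreated cells, and 4 were lower with 4SU alone, as without it; the block changed no other call. Under median centring 1 coat gene was higher in place of 2 in 4SU+UVA against untreated and against UVA cells, and 1 in place of 0 in the interaction. Against untreated cells, the gene that no longer passed was CLTA. With libraries left out, the number higher ranged from 1 to 2 in 4SU+UVA against UVA and from 0 to 2 in the interaction, and the number lower with 4SU alone from 1 to 5. COPB1 with 4SU alone lost its call in 9 alternatives. Over the whole table, genes called with 4SU alone ranged from 728 to 2049, beside 1654, and with UVA alone there were 45 without the filter, 42 under quantile normalisation and 27 without the trend, beside 75. Values near 0 changed sign. In UVA against untreated cells, median centring gave CLTA -0.01, COPA -0.02, COPB1 -0.08 and SEC31A -0.06, and quantile normalisation gave COPB1 -0.03 and SEC31A -0.03. With libraries left out, ranges that crossed 0 were -0.08 to 0.03 for CLTA and -0.11 to 0.03 for SEC24C with 4SU alone, and -0.02 to 0.02 for COPB1, -0.03 to 0.01 for COPG1 and -0.01 to 0.04 for SEC31A with UVA alone. The cause was not tested. The depth of the shallowest library, 1899854 reads, left 153 reads on CLTB.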
